A study of Mus musculus with 2 samples.

Results

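The oxidative phosphorylation genes were described in single leukocytes from mice with liver metastases, 5 days after infusion of vehicle or of CBL0137 into the hepatic artery. The members were taken by symbol: every gene whose symbol starts with Nduf, Uqcr, Atp5 or mt-, or with Cox followed by a digit from 4 to 8, and Sdha, Sdhb, Sdhc and Sdhd. This gave 107 of 32285 genes. Of these, 94 lie in nuclear chromosomes: 39 of complex I, 8 of its assembly, 4 of complex II, 8 of complex III, 18 of complex IV and 17 of complex V, grouped by symbol. The other 13 are the protein genes of mitochondrial DNA, with 7 in complex I, 1 in complex III, 3 in complex IV and 2 in complex V. Cox7b2, Cox8b and Cox8c had 0 unique molecular identifiers (UMIs) in both libraries. Under 100 UMIs in all were found for 6 members in the liver-labelled library and for 4 in the spleen-labelled one.

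Female BALB/cAnNCrl mice aged 7 to 8 weeks carried 4T1-Luc tumors in the liver, from mammary carcinoma cells of the BALB/c strain injected into a spleen pole that was then removed, so the spleen was a remnant. Each of the 3 groups, hashtag A0301 for vehicle (D5W), A0305 for a low dose and A0310 for a high dose of CBL0137, pooled cells of 2 mice. The labels give no amount of drug for either dose, and the methods give an infused amount without tying it to the low or the high dose group. CBL0137, a small molecule that traps the histone chaperone FACT on chromatin, was given by hepatic arterial infusion in both treated groups. The labels call the cells leukocytes, and the study's methods describe CD11b+ selection, yet T cell-like and B cell-like clusters were present. Each group is 1 pooled sample in each library, which leaves no replicate and no test. The intervals are exact 95% intervals that cover counting error only, and a group and its pool of mice cannot be told apart.

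Oxidative phosphorylation moves electrons from NADH through complex I, or from succinate through complex II, to complex III, cytochrome c and complex IV, which hands them to oxygen. Complexes I, III and IV pump protons out of the mitochondrial matrix, and complex V, the ATP synthase, makes ATP as the protons return through its ring of c subunits. Complexes I, III, IV and V are built from subunits of both genomes, whereas complex II is wholly nuclear. Mitochondrial DNA is copied into long transcripts from either strand that are then cut into messages, so its genes share their starts of transcription. Neutrophils are known to hold few mitochondria and to make most of their ATP by glycolysis.

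The liver-labelled library held 9591 cell barcodes with a median of 4673 UMIs, and the spleen-labelled one 4830 with a median of 3369 (between 17333148 and 26508853 UMIs per group, and between 7130127 and 10589251). The deposited files of each library carry the name of the other tissue, and markers went against the tissue labels. Of 10 hepatocyte markers, 8 had 0 UMIs in the liver-labelled library, where they summed to 0.0728 counts per 1000000 UMIs (CPM), and 0 of 10 were at 0 in the spleen-labelled one, where they summed to 89.9 CPM. The libraries are therefore named by their labels only, and no tissue is assigned to them. A single hashtag was called for 8435 and 2988 barcodes, and 15 barcode sequences occurred in both libraries, 6 of them with a call in both. Over all cells with a call, mitochondrial members took 2.41%, 2.40% and 3.08% of UMIs (vehicle, low, high) in the liver-labelled library and 5.80%, 5.38% and 8.16% in the spleen-labelled one. Nuclear members took 1.79%, 1.67% and 1.93%, and 2.22%, 2.15% and 2.24%. These whole-library shares also move with the mix of cell types, and each class is described on its own below.

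Cells were clustered without the members among the genes that define clusters, and clusters were named only from marker lists, as X-like. Levels are sums of UMIs of a class in percent of all its gene UMIs. A UMI counts 1 captured message at its 3′ end irrespective of length. In the vehicle group of the liver-labelled library, the nuclear members were at 3.33% (3.30 to 3.36) in stem or early progenitor-like cells, 3.09% in monocyte-like cells, 2.23% in granulocyte progenitor-like cells, 2.15% in macrophage-like cells, 2.10% in NK cell-like cells, 1.72% (1.71 to 1.74) in T cell-like cells, 1.57% in B cell-like cells and 1.15% (1.14 to 1.16) in neutrophil-like cells. Of these classes, early progenitor-like and monocyte-like cells thus stood at the top and neutrophil-like cells at the bottom. The granulocyte progenitor-like value lay within the range of the macrophage-like values over the groups. Macrophage-like and NK cell-like values also had overlapping ranges over the groups. Conventional dendritic cell-like (22 vehicle cells) and plasma cell-like cells (2) are left out of this order. The mitochondrial members followed another order. They were at 4.65% in B cell-like and 4.62% in macrophage-like cells, 3.51% (3.49 to 3.54) in T cell-like, 3.07% in monocyte-like, 3.01% in early progenitor-like, 2.92% in NK cell-like, 1.85% in granulocyte progenitor-like and 1.23% (1.22 to 1.23) in neutrophil-like cells.

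**Figure D1:**
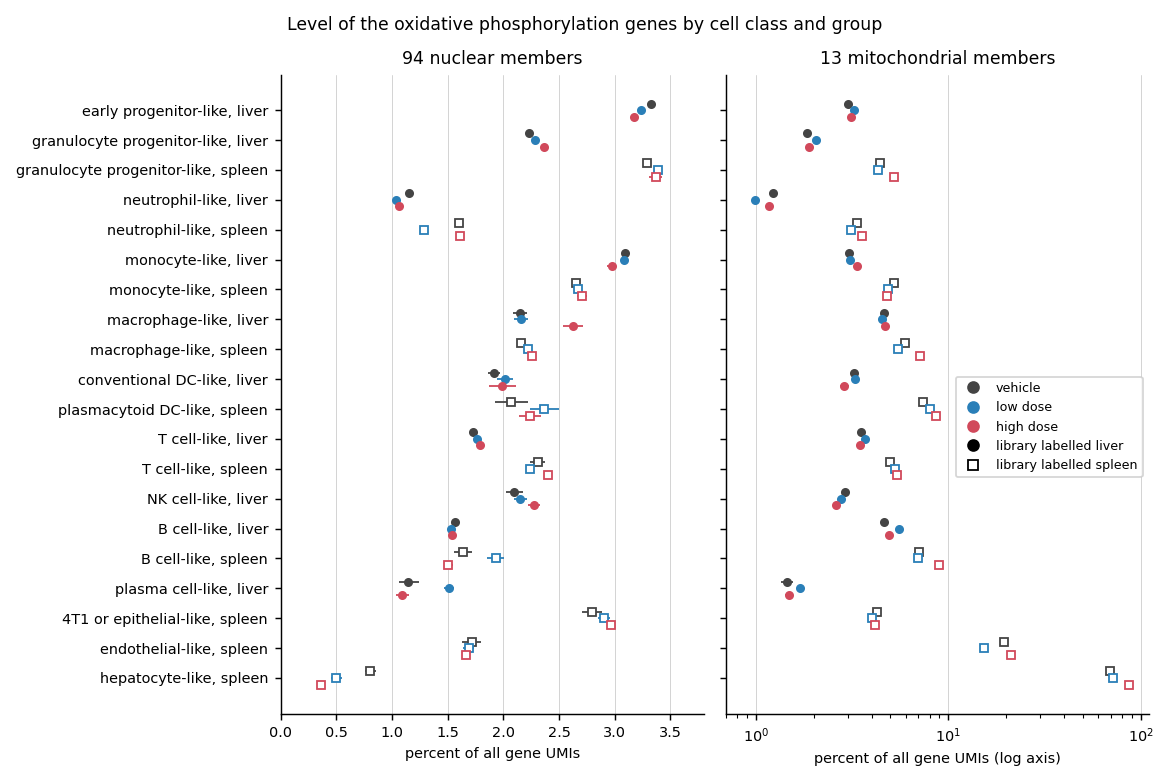
Nuclear (left) and mitochondrial (right, log axis) members in percent of all gene UMIs for each marker-defined class and library, with points for the groups. Neutrophil-like cells sit lowest among the classes of the liver-labelled library. Against T cell-like cells this order turns round for the nuclear members when the 20 most abundant genes are left out of the total. Hepatocyte-like cells of the spleen-labelled library, a cluster led by mt-Nd3 and mt-Nd2, stand apart at 69.4% to 86.5% mitochondrial UMIs. The part of free or dying-cell RNA in that level was not tested.

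The place of neutrophil-like below T cell-like cells depended on what the level is divided by. This held for the nuclear members in both libraries and for the mitochondrial members in the spleen-labelled one. Other classes were not compared with neutrophil-like cells in this way. In vehicle neutrophil-like cells of the liver-labelled library, the 20 most abundant genes took 49.3% of UMIs, S100a8 and S100a9 alone 32.4%, against 19.1% for the top 20 of T cell-like cells. S100a8 and S100a9 encode calprotectin, the most abundant cytosolic protein of neutrophils. As a share of all UMIs the nuclear members were lower in neutrophil-like than in T cell-like cells by a log2 difference of -0.58, and they were higher by 0.24 once the 20 most abundant genes of the classes together, members aside, were left out of the totals. In the spleen-labelled library (1.6% against 2.31%) the same values were -0.53 and 0.21. For the mitochondrial members the log2 difference was -1.52 and stayed at -0.69 without those genes in the liver-labelled library, but turned from -0.58 to 0.16 in the spleen-labelled one. Per cell, vehicle neutrophil-like cells of the liver-labelled library carried a mean of 96.3 nuclear member UMIs and T cell-like cells 87.0. The neutrophil mean was carried by its deeper clusters: clusters 2 and 3, with 649 and 349 of the 1425 cells, had 47.2 and 43.0, and clusters 4, 7 and 12 had 183.8, 125.7 and 366.1.

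Measures inside the module do not depend on the total. For each UMI of a nuclear member, neutrophil-like cells of the liver-labelled library had 1.07, 0.963 and 1.11 mitochondrial UMIs in the vehicle, low and high dose groups. T cell-like cells had 2.04, 2.08 and 1.95, and B cell-like cells 2.97, 3.61 and 3.18. Monocyte-like cells had 0.993, 0.996 and 1.13, and granulocyte progenitor-like cells 0.831, 0.903 and 0.80. Vehicle macrophage-like and NK cell-like cells of this library had 2.15 and 1.39, so the value did not split the classes by lineage. The same ratio in the spleen-labelled library was 2.09, 2.44 and 2.21 in neutrophil-like cells, 2.17, 2.37 and 2.27 in T cell-like cells, and 1.34, 1.28 and 1.55 in granulocyte progenitor-like cells. There the neutrophil and T cell values overlapped over the groups, but this depended on the clustering: the vehicle values were 3.20 in neutrophil-like and 2.17 in T cell-like cells at resolution 0.4, and 1.96 and 3.44 at resolution 1.6.

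The composition of the mitochondrial messages set neutrophils of the liver-labelled library apart. mt-Co1 (ENSMUSG00000064351, chrM:5328-6872, plus strand of GRCm38), which encodes the catalytic core subunit of complex IV, made up 32.6% (32.4 to 32.9) of their mitochondrial UMIs in the vehicle group, 34.1% at the low and 31.5% at the high dose. The same share was 16.9%, 16.3% and 17.5% in T cell-like cells and 19.4%, 17.9% and 19.4% in granulocyte progenitor-like cells. Over all groups, neutrophil-like cells stood at 33.0%, and the 19 other pairs of class and library ranged from 11.6% in 4T1 or epithelial-like cells to 19.4% in neutrophil-like cells of the spleen-labelled library. Each of the 5 neutrophil-like clusters of the liver-labelled library had a share above that of T cell-like cells: 27.1%, 32.4%, 34.9%, 37.2% and 37.6%. The 5 neutrophil-like clusters of the spleen-labelled library ranged from 17.4% to 24.2%.

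The 7 complex I genes of mitochondrial DNA showed the opposite. Together they held 8.4%, 7.91% and 7.47% of mitochondrial UMIs in neutrophil-like cells of the liver-labelled library, against 18.4%, 18.5% and 18.4% in T cell-like cells. The 19 other pairs of class and library ranged from 14.0% in granulocyte progenitor-like cells of the same library to 22.4% in endothelial-like cells. mt-Cytb, the mitochondrial subunit of complex III, was at 5.41% against 7.73% to 13.9%. Dividing by the nuclear members shows which genes carried the gap. Per 1000 nuclear UMIs, mt-Co1 was at 348.1 in vehicle neutrophil-like cells and 344.4 in T cell-like cells (log2 difference 0.01, -0.01 to 0.04). mt-Nd2, at chrM:3914-4951, was at 11.7 against 95.2 (-3.02, -3.11 to -2.94), mt-Nd3 at 3.51 against 19.5 (-2.47) and mt-Nd1 at 21.8 against 95.3 (-2.13). mt-Cytb (59.6 against 194.2, -1.71), mt-Atp6 (171.6 against 404.8, -1.24), mt-Co3 (202.1 against 408.8, -1.02) and mt-Co2 (194.4 against 307.7, -0.66) lay between. So mt-Co1 was level with T cells and the rest of the mitochondrial messages were lower to different degrees. mt-Atp8 overlaps mt-Atp6, which overlaps mt-Co3, and mt-Nd4l overlaps mt-Nd4 on the same strand, so reads in the shared bases cannot be split with certainty.

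**Figure D2:**
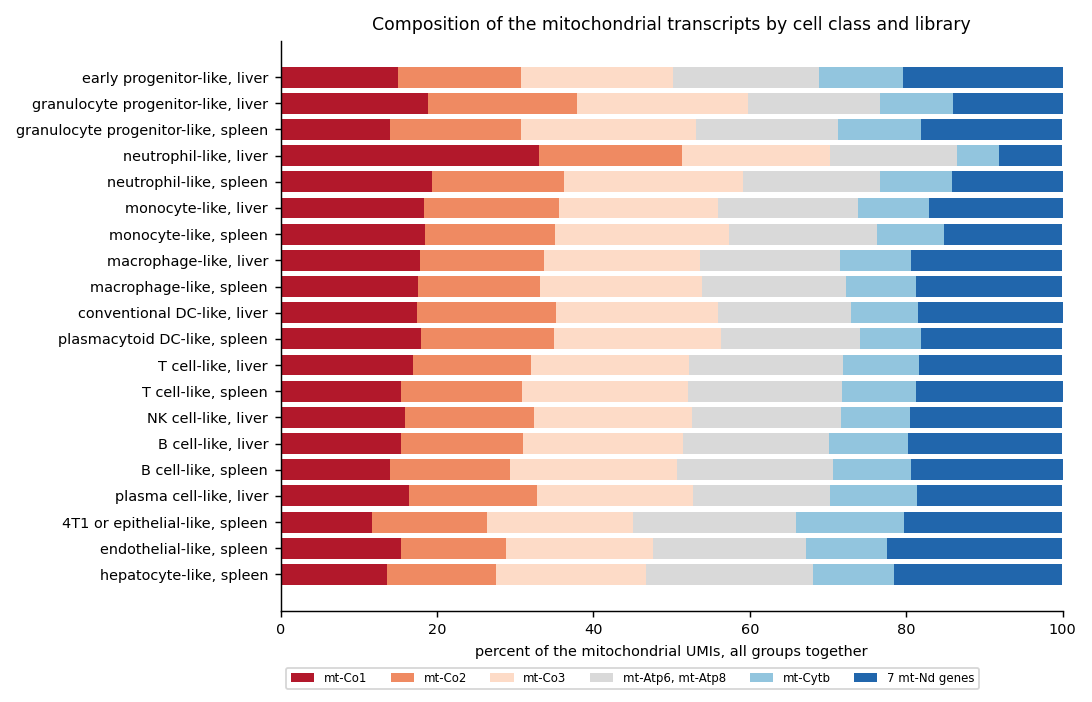
Share of each mitochondrial gene in the mitochondrial UMIs (percent, all groups together), 1 bar per class and library. The mt-Co1 segment is widest in neutrophil-like cells of the liver-labelled library (33.0%), where the 7 mt-Nd genes together hold 8.08%.

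The same comparison in the spleen-labelled library was smaller. Per 1000 nuclear UMIs, mt-Co1 was at 399.1 in vehicle neutrophil-like and 354.2 in T cell-like cells (log2 difference 0.17), mt-Nd2 at 70.9 against 103.7 (-0.55), mt-Nd3 at 17.8 against 29.2 (-0.71), and mt-Cytb and mt-Co3 differed by 0.06 and 0.02. The order of mt-Co1 over mt-Nd2 thus occurred in both libraries with very different size. Other RNA moved with the library. Hepatocyte markers were at 42.7 CPM in vehicle neutrophil-like cells of the spleen-labelled library, whose hepatocyte-like cells were 69.4% mitochondrial, and 8 of the 10 markers had 0 UMIs in the liver-labelled library. The part of such RNA in the neutrophil composition of the spleen-labelled library was not tested.

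Within the granulocyte lineage of the liver-labelled library, nuclear members went from 2.28% in the progenitor-like cluster led by Elane, Prtn3 and Fcnb (proteases and a lectin of primary granules), through 1.40% in the neutrophil-like cluster led by Ltf and Camp (secondary granule genes), to 1.16%, 1.06%, 1.02% and 0.831% in the 4 others. Mitochondrial members were at 1.94%, then 1.21%, then 0.997% to 1.30%. The spleen-labelled progenitor-like cluster, led instead by Ctsg, Mpo and Myb, was at 3.35% nuclear and 4.45% mitochondrial, the Camp and Ngp cluster at 1.94% and 2.99%, and the other 4 at 0.820% to 1.11% and 2.62% to 6.27%. The progenitor clusters were led by different genes in the libraries, so they cannot be taken as the same stage. The share of mt-Co1 ran the other way in the liver-labelled library: 18.8% of mitochondrial UMIs in progenitor-like cells, 27.1% in the Ltf and Camp cluster and 32.4% to 37.6% in the rest. Its spleen-labelled values were 14.0%, 17.5% and 17.4% to 24.2%.

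**Figure D3:**
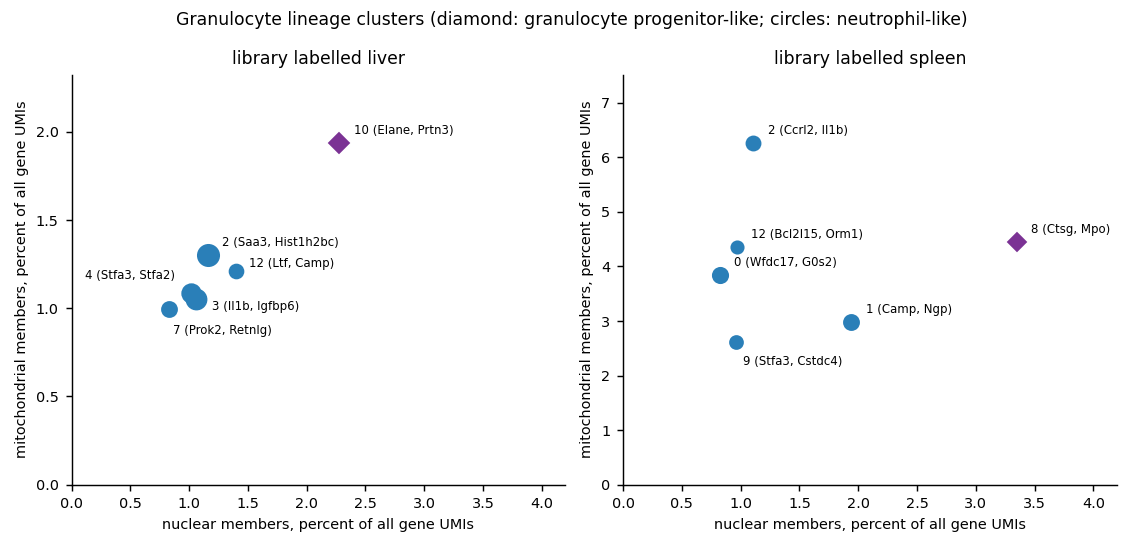
Nuclear against mitochondrial members, both in percent of all gene UMIs, for each progenitor-like (diamond) and neutrophil-like (circle) cluster, 1 panel per library, with larger symbols for more cells. Progenitor-like clusters lie farthest right at 2.28% and 3.35% nuclear UMIs, and the Ltf and Camp or Camp and Ngp clusters come next at 1.40% and 1.94%.

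Of nuclear member UMIs in vehicle neutrophil-like cells of the liver-labelled library, complex I took 32.7%, complex IV 29.4%, complex V 27.9%, complex III 7.91%, complex II 1.69% and the complex I assembly factors 0.435%. In T cell-like cells these were 30.7%, 24.5%, 32.0%, 9.86%, 1.71% and 1.22%. Per nuclear UMI, neutrophil-like cells thus had the higher complex IV share and the lower complex V, complex III and assembly factor shares. Spleen-labelled complex IV was at 28.6% against 26.7% and complex V at 28.2% against 32.3%, in the same order.

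Single nuclear members were compared between neutrophil-like and T cell-like vehicle cells relative to the summed nuclear members, and a gene was counted when it passed 1.5-fold with 100 UMIs or more. In the liver-labelled library, 14 of 82 nuclear members were higher and 27 lower (median log2 difference -0.24), where 30.9% of all 6989 genes were higher and 39.0% lower (median -0.18). In the spleen-labelled one, 13 of 77 were higher and 11 lower (median -0.08), where 39.2% and 24.9% of 2589 genes were (median 0.22). Read against these shares of all genes, neither count was an excess. Of the 13 mitochondrial members 12 were lower in the liver-labelled library, and 1 of 11, mt-Nd3, in the spleen-labelled one. Of 77 members measured in both libraries, 9 were higher in both (of 14 and 13) and 11 lower in both (of 23 and 11). None passed the fold in opposite directions, and 61 had the same sign. The same counts over all genes are not given, so this overlap is not read as a trait of the members. T cell-like clusters differed in part between the libraries. Foxp3 was among the leading genes of a T cell-like cluster in the liver-labelled library only, and Gzma in the spleen-labelled one only. Cd8b1, Lef1 and Il7r were among the leading genes of T cell-like clusters in both. The Gzma cluster held 22 vehicle cells, with Cd3g and Cd8a as well as Prf1 and Klrd1 among its leading genes. The other T cell-like cluster of the spleen-labelled library, led by Il7r and Lef1, held 20. No cluster of that library was named NK cell-like, so NK cells in the Gzma cluster are not set apart.

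The genes higher in neutrophils in both libraries were accessory or small subunits: Ndufa1, Ndufa8, Ndufb1-ps, Ndufb7, Ndufb8 and Ndufb9 of complex I, Cox6a1 and Cox7a2 of complex IV and Atp5f1, the b subunit of the ATP synthase stalk. Ndufb7 (ENSMUSG00000033938, chr8:83566671-83571626) had the largest difference of these in the liver-labelled library, with 10.1 per 1000 nuclear UMIs in T cell-like and 26.2 in neutrophil-like cells of the liver-labelled library (log2 difference 1.37, 1.24 to 1.51), and stood at 12.9 and 20.8 in the spleen-labelled one (0.69, 0.32 to 1.09). Over all groups it held 2.70% and 2.17% of nuclear UMIs in neutrophil-like cells of the liver-labelled and spleen-labelled libraries, the 2 highest of the 20 pairs of class and library. Ndufb1-ps was at 23.5 against 9.65 (1.28) and 21.8 against 10.4 (1.07). Cox6a1, a subunit of complex IV with a tissue-restricted paralog, was at 17.9 against 11.6 (0.63) and 14.5 against 5.92 (1.30, 0.75 to 1.90). Cox4i1, another complex IV subunit, was at 45.0 against 42.5 (0.08) in the liver-labelled library and serves as an example of a member that did not pass the fold.

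The genes lower in both libraries included core and catalytic subunits: Ndufs3 and Ndufv1 of the matrix arm of complex I, where electrons enter from NADH, Sdha, the succinate-oxidizing subunit of complex II, Atp5a1 and Atp5b, the alpha and beta subunits of the catalytic head of ATP synthase, and Atp5g2 and Atp5g3, which encode its c subunit. Ndufa10, Ndufab1, Uqcrh and Cox7a2l completed the list. Ndufs3 was at 1.28 per 1000 nuclear UMIs against 5.25 in T cell-like cells of the liver-labelled library (log2 difference -2.04, -2.33 to -1.76) and at 1.63 against 5.07 in the spleen-labelled one (-1.64). Atp5b was at 11.4 against 22.0 (-0.95) and Sdha at 2.55 against 5.62 (-1.14) in the liver-labelled library, and Sdha differed by -1.05 in the spleen-labelled one. Uqcrh, the hinge protein of complex III, was at 21.9 against 39.0 (-0.84) and at 20.2 against 37.6 (-0.90). Sdhb, the iron-sulfur subunit of complex II, was at 8.50 against 5.70 (0.58), just inside the fold, so the complex II genes did not move together.

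**Figure D4:**
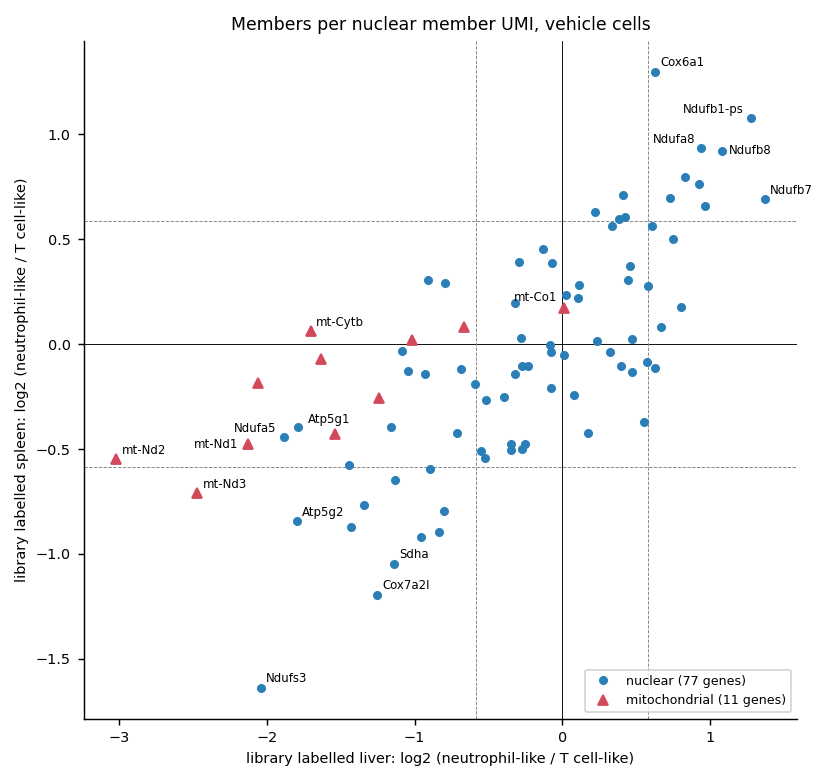
Each point is a member: log2 ratio of neutrophil-like to T cell-like vehicle cells per nuclear member UMI, in the liver-labelled library (x) and in the spleen-labelled one (y). Ndufb7 (1.37 and 0.69) and Cox6a1 (0.63 and 1.30) lie in the upper right, Ndufs3 (-2.04 and -1.64) in the lower left, and the mitochondrial genes other than mt-Co1 left of 0 on the x axis and between -0.71 and 0.08 on the y axis.

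Ndufaf4, an assembly factor of complex I, was all but missing from neutrophils. It had 4 UMIs in 1425 vehicle neutrophil-like cells of the liver-labelled library and 151 in 591 T cell-like cells, or 0.0292 against 2.94 per 1000 nuclear UMIs (log2 difference -6.66, -8.55 to -5.27). Over all groups it held 0.00715% of nuclear UMIs in those neutrophils and 0.0148% in those of the spleen-labelled library, the 2 lowest of the 20 pairs of class and library, whose highest was 0.349% in B cell-like cells of the liver-labelled library. Granulocyte progenitor-like cells of that library stood at 0.0183%, 0.0222% and 0.0209% (vehicle, low, high), and those of the spleen-labelled library at 0.136%, 0.257% and 0.158%. In the spleen-labelled library the vehicle cells gave 6 and 9 UMIs in neutrophil-like and T cell-like cells, too few to compare. Ndufaf7 and Ndufaf8 also passed the fold downward in the liver-labelled library, 3 of the 4 assembly factors with 100 UMIs, beside 39.0% of all genes. In the spleen-labelled one 2 assembly factors had enough UMIs and 0 passed in either direction.

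The promoters of 3 of these genes each carry a match to NRF1 or ETS, which most members with a promoter did not. They are the 250 bases before the RefSeq start (GRCm38.p6). Shown are the gene with the largest difference from T cell-like cells in the liver-labelled library and 1 gene from each shared direction. Matches to NRF1 (GCGCATGCGC or its core GCATGCGC) and ETS (CCGGAAG or, on the other strand, CTTCCGG) are in capitals.
Ndufaf4, chr4:24897833-24898082, plus strand: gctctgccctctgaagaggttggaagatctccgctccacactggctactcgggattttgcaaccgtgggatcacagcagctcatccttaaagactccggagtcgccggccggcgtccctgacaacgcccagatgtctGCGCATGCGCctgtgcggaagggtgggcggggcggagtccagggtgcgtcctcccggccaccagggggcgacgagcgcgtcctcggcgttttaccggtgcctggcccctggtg
Cox6a1, chr5:115348959-115349208, minus strand: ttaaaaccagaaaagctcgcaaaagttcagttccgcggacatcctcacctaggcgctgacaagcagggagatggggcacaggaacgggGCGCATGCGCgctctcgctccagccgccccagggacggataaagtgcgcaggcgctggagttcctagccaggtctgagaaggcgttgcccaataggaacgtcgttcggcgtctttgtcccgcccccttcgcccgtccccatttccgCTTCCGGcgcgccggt
Uqcrh, chr4:116075071-116075320, minus strand: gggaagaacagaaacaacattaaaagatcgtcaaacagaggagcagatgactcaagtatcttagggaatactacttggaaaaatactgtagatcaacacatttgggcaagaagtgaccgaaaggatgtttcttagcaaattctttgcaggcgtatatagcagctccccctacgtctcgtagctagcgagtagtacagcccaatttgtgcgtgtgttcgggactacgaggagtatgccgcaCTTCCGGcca
The windows reach 0, 23 and 1 bases into the annotated gene. NRF1 activates genes of respiration, and the ETS motif is that of GABP, another such activator. Ndufaf4 and Cox6a1 both carried the palindromic NRF1 site, the first lower and the second higher in neutrophils, and Uqcrh carried an ETS match beside its start. Windows of 300 bases (250 before and 50 after the start) were searched on both strands. GCATGCGC occurred in 12 of the 75 nuclear members with a RefSeq promoter (16.0%) and in 3.05% of 27025 genes. CCGGAAG occurred in 19 (25.3%) against 9.93%, and the YY1 motif AAGATGGCG in 8 (10.7%) against 1.64%. At least 1 of them occurred in 32 of 75, and 5 held both NRF1 and ETS matches. Of the genes higher in neutrophils in both libraries 6 had a promoter in the table, 2 with NRF1 and 2 with ETS, and of the lower genes 10 had a promoter, 1 with NRF1 and 2 with ETS. A match is a run of letters and not a measured binding site.

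Against granulocyte progenitor-like vehicle cells, and again relative to the summed nuclear members, 9 of 80 nuclear members were higher in neutrophil-like cells and 11 lower in the liver-labelled library (median log2 difference -0.09), where 64.3% of all genes were higher and 10.7% lower (median 1.02). In the spleen-labelled one 6 of 81 were higher and 17 lower (median -0.10), where 38.6% and 26.0% of all genes were (median 0.20). Of 80 members measured in both libraries, Ndufa13 alone was higher in both (of 9 and 6). Ndufa13 overlaps Yjefn3 on the same strand, so reads in their shared bases cannot be split with certainty. Ndufa5, Ndufa9, Ndufab1, Ndufc2, Atp5g1 and Atp5g2 were lower in both (of 11 and 16), while 2 passed the fold in opposite directions. Again the same counts over all genes are not given. Atp5g1 was at 3.18 per 1000 nuclear UMIs against 11.6 (-1.86, -2.03 to -1.70) and at 7.39 against 17.9 (-1.28). Ndufab1, an acyl carrier protein that is also a complex I subunit, was at 2.27 against 5.02 (-1.15) and 3.58 against 9.16 (-1.36). The opposite pair of complex II genes, Sdha and Sdhd, was at 2.55 against 1.54 (0.73) and 4.49 against 2.79 (0.68) in the liver-labelled library, and at 1.84 against 2.98 (-0.69) and 3.92 against 5.89 (-0.59) in the spleen-labelled one, with progenitors led by different genes.

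The ATP synthase c subunit is made from 3 genes, Atp5g1, Atp5g2 and Atp5g3, whose mature proteins are the same. Together they held 1.73%, 1.48% and 1.56% (vehicle, low, high) of nuclear UMIs in neutrophil-like cells of the liver-labelled library, against 4.99%, 4.65% and 5.11% in T cell-like, 3.72%, 3.96% and 3.88% in granulocyte progenitor-like and 6.12%, 5.94% and 5.85% in early progenitor-like cells. Neutrophil-like cells of the spleen-labelled library stood at 2.81%, 2.43% and 2.94% and progenitor-like cells at 5.4%, 5.51% and 5.55%. The neutrophil groups did not overlap those of progenitors in either library. The share of all genes without such overlap is not given, so this is not read as a trait of these genes. Relative to the summed nuclear members, 10.7% (liver-labelled) and 26.0% (spleen-labelled) of all genes were lower past 1.5-fold in vehicle neutrophil-like than granulocyte progenitor-like cells. Over all groups the neutrophil-like cells of the libraries (1.61% and 2.70%) were the 2 lowest of 20 pairs, below a highest of 5.94%. The mix of the 3 genes also differed. Atp5g1 (chr11:96068852-96075670) made up 18.4%, 17.2% and 12.8% of their sum in neutrophil-like cells of the liver-labelled library, 31.2%, 31.9% and 33.7% in granulocyte progenitor-like and 36.1%, 35.4% and 32.6% in early progenitor-like cells. Atp5g2 (chr15:102662864-102672352) led in B cell-like cells at 61.7%, 61.6% and 63.4%. Atp5g3 (chr2:73908447-73911326) held 35.8% in neutrophil-like cells over all groups, and 17.1% to 30.5% in the other pairs.

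Some complex IV subunits come as paralogs with tissue-restricted copies. Cox6a2 (ENSMUSG00000030785, chr7:128205435-128206387, minus strand) is the copy of heart and skeletal muscle. It was found in plasmacytoid dendritic cell-like cells of the spleen-labelled library, a cluster of 25 cells led by Klk1, Siglech and Ccr9. There 24 of 25 cells had a Cox6a2 UMI (96.0%, exact interval 79.7 to 99.9) and 19 of 25 a Cox6a1 UMI. Its 382 UMIs came to 2064 CPM, and Cox6a2 made up 90.1% (86.9 to 92.8) of the Cox6a1 and Cox6a2 UMIs. By group the share was 84.3% of 51 UMIs, 91.1% of 135 and 90.8% of 238, in 5, 8 and 12 cells. In every other named class Cox6a2 was at or under 9.16 CPM, the value of granulocyte progenitor-like cells of the same library, where 37 of 39 UMIs came from the low dose group. In neutrophil-like cells of the liver-labelled library 0 of 2912 cells had a Cox6a2 UMI (exact upper limit 0.127%, for cells with a UMI and not for cells that express the gene). The liver-labelled library had no cluster named as plasmacytoid dendritic cell-like, and its unnamed clusters held 31 Cox6a2 UMIs (23.2 CPM).

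The other tissue-restricted copies were sparse. Cox4i2, a copy of lung and of oxygen-sensing cells, reached 25.1 CPM with 13 UMIs in plasma cell-like cells, 14.0 CPM with 64 UMIs in macrophage-like cells of the spleen-labelled library and 8.86 CPM with 48 UMIs in early progenitor-like cells. It made up 2.24%, 1.70% and 0.819% of Cox4i1 and Cox4i2 UMIs in those macrophages (vehicle, low, high). Their cluster led by Marco and Clec4f held 6, 26 and 40 cells, and the one led by Arg1 and Ccl8 held 54, 85 and 85. The part of that mix in these shares was not tested. Cox6b2, a testis copy, had 269 UMIs (49.6 CPM) in early progenitor-like cells, 7.47% of the Cox6b1 and Cox6b2 UMIs. Cox7a1, a muscle copy, had 59 UMIs (12.9 CPM) in macrophage-like cells of the spleen-labelled library. Ndufa4l2, a copy induced in low oxygen, had 11 UMIs (4.15 CPM) in 4T1 or epithelial-like cells. Cox7a2l was widely present and varied more. Of Cox7a2 and Cox7a2l UMIs it held 69.4%, 69.8% and 67.6% in T cell-like and 12.7%, 11.3% and 11.5% in granulocyte progenitor-like cells of the liver-labelled library. Its share in the spleen-labelled library was 51.8%, 46.0% and 38.0% in T cell-like and 21.3%, 26.5% and 20.5% in neutrophil-like cells. Of those T cell-like cells, the Gzma cluster held 22, 59 and 117 and the Il7r and Lef1 cluster 20, 44 and 52. The part of the cluster mix in these shares was not tested.

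The libraries were set side by side within a class in vehicle cells, as values without a replicate. Mitochondrial members were 2.73-fold higher in neutrophil-like cells of the spleen-labelled library than of the liver-labelled one (3.35% against 1.23%), 2.38-fold in granulocyte progenitor-like, 1.70-fold in monocyte-like, 1.51-fold in B cell-like, 1.42-fold in T cell-like and 1.29-fold in macrophage-like cells. Nuclear members were 1.39-fold higher in neutrophil-like, 1.48-fold in granulocyte progenitor-like and 1.34-fold in T cell-like cells, and 0.857-fold in monocyte-like cells. The ratio of mitochondrial to nuclear UMIs was thus 1.96-fold higher in neutrophil-like, 1.98-fold in monocyte-like 1.61-fold in granulocyte progenitor-like, 1.44-fold in B cell-like, 1.28-fold in macrophage-like and 1.06-fold in T cell-like cells. All 6 classes measured in both libraries had the higher mitochondrial level in the spleen-labelled one. Barcodes over 50% mitochondrial made up 12.1% of all barcodes of the spleen-labelled library and 1.05% of the liver-labelled one. Among the vehicle cells of all classes they made up 6.57% and 0.870%. The part of free or dying-cell RNA in these differences was not tested, and tissue and library cannot be told apart.

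The doses were compared with the vehicle group of the same class and library, and the 2 dose comparisons share the vehicle cells. In neutrophil-like cells of the liver-labelled library, nuclear members were at 1.15%, 1.03% and 1.06% and mitochondrial members at 1.23%, 0.993% and 1.18% (vehicle, low, high). At the low dose this was a log2 difference of -0.16 (-0.17 to -0.15) for the nuclear and -0.31 (-0.32 to -0.29) for the mitochondrial members. At the high dose it was -0.11 (-0.13 to -0.10) and -0.06 (-0.07 to -0.04), and without the 20 most abundant genes both high dose values turned to 0.01 and 0.06. In the spleen-labelled library the neutrophil values were 1.6%, 1.29% and 1.61% nuclear and 3.35%, 3.14% and 3.56% mitochondrial, or -0.31 (-0.33 to -0.30) and -0.09 at the low dose and 0.01 and 0.09 at the high dose. Calling each barcode by its dominant hashtag turned the high dose pair to -0.04 and -0.09, and 1532 of the 1627 barcodes without a call in that library had the high dose hashtag on top. The low dose group thus had the lowest nuclear and mitochondrial level of the 3 groups in neutrophils of both libraries, except that by the mean over cells the high dose had the lower nuclear value in the liver-labelled one (-0.26 against -0.22). In the liver-labelled library the largest number of neutrophil-like cells was in cluster 2 for vehicle (649 cells), cluster 3 for the low dose (451) and cluster 4 for the high dose (149), and the median UMIs per cell were 4354, 5733 and 18590. These medians in the spleen-labelled library were 4913, 4259 and 14147, and hepatocyte markers were at 42.7, 67.7 and 213.1 CPM.

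Set to the cluster mix of each dose, the vehicle cells gave the level that a change of mix alone would give. For the low dose in the liver-labelled library this was 1.12% nuclear and 1.20% mitochondrial, against 1.03% and 0.993% measured. For the high dose it was 1.07% and 1.14%, against 1.06% and 1.18% measured. In the spleen-labelled library it was 1.45% and 3.24% at the low dose, against 1.29% and 3.14% measured, and 1.61% and 3.02% at the high dose, against 1.61% and 3.56%. There cluster 12 held 121 low dose, 2 vehicle and 3 high dose cells, so that part of the low dose mix rests on 2 vehicle cells. Within single clusters, the low dose was below vehicle in each of the 5 neutrophil-like clusters of the liver-labelled library, by log2 differences of -0.10 to -0.18 for nuclear members and -0.16 to -0.44 for mitochondrial members. In the 4 of the spleen-labelled library with 20 cells or more in both groups it was below by -0.11 to -0.26 and by -0.002 to -0.38. At the high dose the values in the liver-labelled library were -0.04 nuclear and 0.05 mitochondrial in cluster 4, and 0.10 and 0.12 in cluster 7 with 22 high dose cells. In the spleen-labelled one they were -0.03 and 0.89 in cluster 0 with 22 high dose cells, 0.03 and 0.03 in cluster 1 and -0.18 and 0.34 in cluster 9. The mitochondrial values within clusters were thus above 0 in all 5 clusters with 20 cells or more in both groups, while the nuclear ones had either sign. Hepatocyte markers were highest in the high dose neutrophils of the spleen-labelled library (213.1 CPM), and their part in these values was not tested.

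**Figure D5:**
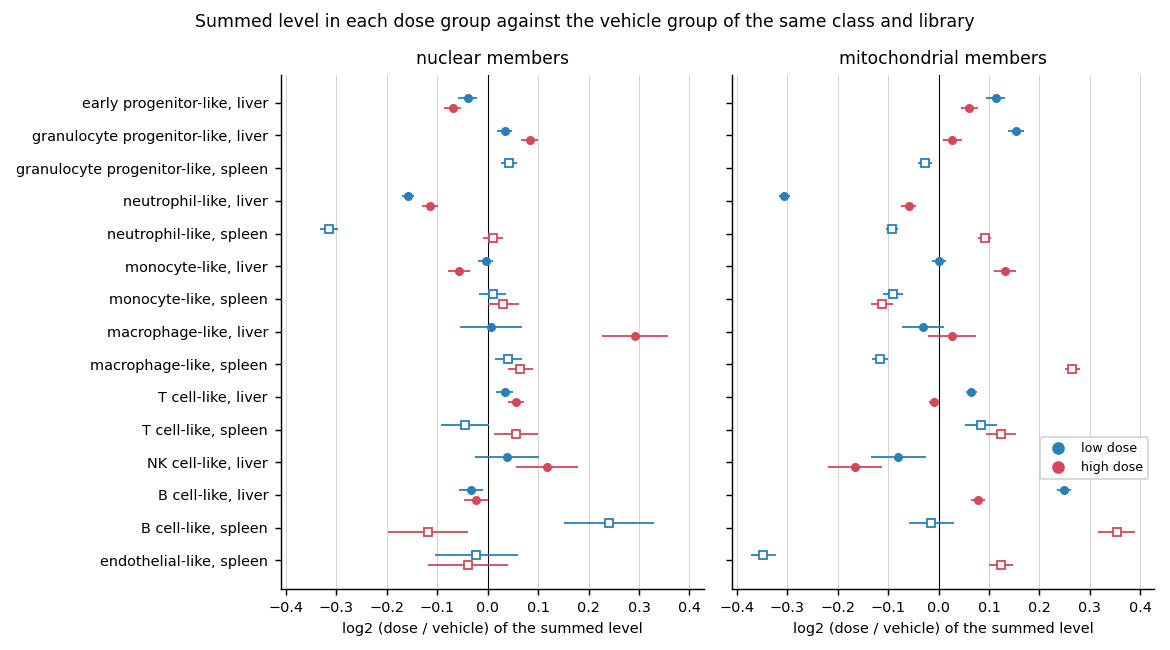
Log2 ratio of the summed level in each dose group to the vehicle group for nuclear (left) and mitochondrial (right) members, with counting intervals, for classes with 20 cells or more in both groups (hepatocyte-like cells left out). Low dose neutrophil-like cells lie left of 0 in both libraries and both panels, at -0.31 to -0.09, while the sign at the high dose depends on the scaling in the liver-labelled library and on the hashtag calls in the spleen-labelled one.

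Gene by gene, few members passed 1.5-fold at either dose. In neutrophil-like cells of the liver-labelled library at the high dose, 0 of 80 nuclear members were higher and 4 lower, where 1.89% of all genes were higher and 28.1% lower. The median of all genes was itself -0.31 on the log2 scale, and that of the nuclear members -0.12 and of the mitochondrial -0.13, so the medians of the members lay above that of all genes. The 4 were Ndufs7, Atp5g1, Ndufa7 and Ndufaf3. Gene values here and below are those of a whole class, whose cluster mix differs by group. Clusters 2 and 3 held 649 and 349 vehicle cells of this class, and 10 and 3 high dose cells. The part of the mix in single-gene values was not tested. Ndufs7 (chr10:80249121-80256794), which carries the last iron-sulfur cluster before ubiquinone in complex I, was at 58.4 CPM in vehicle and 32.4 CPM in high dose cells (-0.85, -1.13 to -0.58). Atp5g1 was at 36.6 and 21.3 CPM (-0.79, -1.14 to -0.45), Ndufa7, an accessory subunit of complex I, at 162.7 and 97.4 CPM (-0.74), and Ndufaf3, an assembly factor, at 17.1 and 10.4 CPM (-0.72). Uqcr10 of complex III lay just inside the fold at 166.5 and 111.1 CPM (-0.58). Among members with 200 UMIs or more the highest ratio was that of Ndufa1, a small membrane subunit of complex I, at 162.9 and 191.8 CPM (0.24, 0.11 to 0.36). mt-Nd6 (chrM:13552-14070), the mitochondrial protein gene on the opposite strand from the others, was the 1 member of 13 mitochondrial genes past the fold, at 8.30 and 13.7 CPM from 99 and 54 UMIs (0.72, 0.21 to 1.21).

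At the low dose in the same cells 0 of 82 nuclear and 0 of 13 mitochondrial members passed in either direction, where 0.941% of all genes were higher and 4.3% lower. The shift was spread over many genes: 76 of 82 nuclear members were lower and 6 higher (median -0.17), beside 4551 of 6798 genes lower in all (median -0.09), and all 13 mitochondrial members were lower, by 0.18 to 0.43 on the log2 scale. Atp5g1 was at 36.6 and 26.3 CPM (-0.48), mt-Cytb at 685.7 and 515.0 CPM (-0.41) and Ndufv1 differed by -0.42. In neutrophil-like cells of the spleen-labelled library at the low dose, 77 of 80 nuclear members were lower and 3 higher (median -0.31), beside 2335 of 4228 genes lower in all (median -0.05). There 0 passed the fold upward and 3 downward, where 3.86% and 6.48% of all genes did. The 3 were Ndufa5, of the matrix arm of complex I (74.5 and 44.5 CPM, -0.74, -1.04 to -0.45), Atp5g3 (122.6 and 80.4 CPM, -0.61) and Cox7b, a complex IV subunit (198.7 and 131.8 CPM, -0.59). Atp5g1 was next at 118.2 and 79.4 CPM (-0.57), just inside the fold. At the high dose in that library 1 of 80 nuclear members passed upward (Sdhc, an anchor subunit of complex II, at 17.3 and 29.8 CPM from 51 and 69 UMIs) and 0 downward, where 3.8% and 5.24% of all genes did, and the medians were 0.02 for nuclear members and for all genes.

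In T cell-like cells of the liver-labelled library, nuclear members were at 1.72%, 1.77% and 1.79% and mitochondrial members at 3.51%, 3.68% and 3.49%, with median UMIs per cell of 4795, 4668 and 5037. At the high dose 0 of 84 nuclear members passed 1.5-fold in either direction, where 1.95% of all genes were higher and 0.763% lower. Of them 62 were higher and 22 lower (median 0.07), beside 3584 of 6813 genes higher in all (median 0.01). Ndufs7, which was lower in the high dose neutrophil-like class as a whole, was at 105.7 and 132.9 CPM (0.33) in these T cell-like cells. Uqcrc1, a core subunit of complex III, was at 98.6 and 80.2 CPM (-0.30). mt-Nd6 was the single mitochondrial member past the fold, at 29.9 and 45.2 CPM (0.60, 0.25 to 0.97). mt-Nd6 was thus higher at the high dose in neutrophil-like and T cell-like cells of the liver-labelled library, while neutrophil-like cells of the spleen-labelled one gave 56 vehicle and 37 high dose UMIs of the gene, too few to compare. mt-Nd6 and mt-Nd5 overlap on opposite strands, so their shared bases are told apart by strand alone.

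In B cell-like cells of the liver-labelled library, 1 of 81 nuclear members passed upward (Ndufa9, of complex I, at 31.1 and 46.9 CPM from 60 and 79 UMIs) and 0 downward at the high dose, where 1.1% and 2.26% of all genes did. Their nuclear members were at 1.57%, 1.53% and 1.54% and their mitochondrial members at 4.65%, 5.52% and 4.91%. Cluster 8, chosen after seeing the data, had cells with a median of 781 UMIs and 18.6% mitochondrial UMIs. Without it the high dose mitochondrial difference turned from 0.08 to -0.06 on the log2 scale. For the high dose the cluster mix gave 0.05 and 0.03 lay within clusters. For the low dose the cluster mix gave 0.04 and the rest, 0.21, lay within clusters, with 14.7% in vehicle and 19.8% in low dose cells of cluster 8. Cluster 18 held 149 low dose, 2 vehicle and 1 high dose cell, so its part of the mix rests on 2 vehicle cells. Macrophage-like cells of the liver-labelled library were at 2.15%, 2.15% and 2.63% nuclear, a high dose difference of 0.29 (0.23 to 0.36), and those high dose cells had a median of 855 UMIs. Macrophage-like cells of the spleen-labelled library were at 5.94%, 5.48% and 7.13% mitochondrial (high dose 0.26, 0.25 to 0.28) with nuclear members at 2.16%, 2.22% and 2.26%. This class joined a cluster led by Arg1 and Ccl8 (54 vehicle and 85 high dose cells) and one led by Marco and Clec4f (6 and 40). The part of that mix in the difference was not tested. Endothelial-like cells were at 19.5%, 15.3% and 21.2% mitochondrial, and hepatocyte-like cells at 69.4%, 71.7% and 86.5%, with nuclear members of the latter at 0.805%, 0.499% and 0.36%. The hepatocyte-like class was a cluster of 57, 29 and 78 cells (vehicle, low, high) with a median of 2116.5 UMIs. It was led by mt-Nd3, mt-Nd2, mt-Nd4 and mt-Atp6, with Hpx, Alb and Apoa1 also among its leading genes. The part of free or dying-cell RNA in its levels and in their differences between groups was not tested. Monocyte-like cells kept their nuclear level within 2.97% to 3.09% in the liver-labelled library and 2.65% to 2.71% in the spleen-labelled one.

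Other genes of mitochondrial function were taken from lists. In the high dose neutrophil-like class of the liver-labelled library, 0 of 59 mitochondrial ribosome genes with enough UMIs passed upward and 15 downward (median -0.34, all genes -0.31), where 1.89% of all genes were higher and 28.1% lower. There 5 of 12 assembly factors and carriers of electrons passed downward (Uqcc2, Uqcc3, Cox14, Surf1 and Sdhaf4), and 2 of 6 genes that control mitochondrial DNA (Polg, its polymerase, and Nrf1). None of 10 citric acid cycle genes passed (median -0.19). Of 14 glycolysis genes 4 passed downward (Hk2, Pfkl, Pfkp and Tpi1), beside the same 28.1%, with a median of 0.05. At the low dose 6 of 64 mitochondrial ribosome genes were lower in the liver-labelled library (median -0.24) and 10 of 52 in the spleen-labelled one (median -0.33), where 4.3% and 6.48% of all genes were. In the latter 2 of 10 assembly factors and carriers, Cycs and Uqcc2, were also lower. There Nrf1 alone was higher of 3 genes that control mitochondrial DNA, whose median was -0.375, where 3.86% of all genes were higher. In T cell-like cells of the liver-labelled library at the high dose 1 of 76 mitochondrial ribosome genes, Mrpl37, passed upward and none downward. There 1.95% of all genes were higher and 0.763% lower.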

How the data were processed

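Leukocytes of 2 libraries, each with 3 hashtag groups, were profiled by 10x Genomics single-cell RNA sequencing. The deposited values are raw UMI counts per gene and barcode (genome mm10). The study's methods name Cell Ranger v8.0, the submitters' processing notes Cell Ranger 6.0.0, and the file headers another release. Here hashtags were called with HTODemux (quantile 0.99, Seurat 5.3.0, R 4.3.3) per library. Cells with 1 hashtag were normalised with SCTransform 0.4.2 and clustered on 30 principal components (resolution 0.8) after the members were taken out of the variable features, which left 2982 and 2984 genes. A list could name a cluster when 3 or more of its markers were raised. Raised means a log2 fold of 1 or more over the other cells (after adding 10 CPM), with the gene in at least 20% of the cluster's cells. No other class list could hold more markers among the cluster's 10 leading genes, and ties went to the list with the largest share raised. A cluster with few UMIs and no such leading marker stayed unnamed. These rules named 19 of 22 and 17 of 19 clusters. None of these cells was removed (barcodes with no or several hashtags were not used), and Scrublet marked 248 and 1 barcodes as doublets, left in and left out as an alternative.

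UMIs were summed per class, group and library in Python 3.11.15 and SciPy 1.17.1. The count intervals were exact (Poisson sums, conditional binomial ratios, Clopper-Pearson shares) and cover counting error only. The ratio intervals were run on simulated Poisson counts, the error that they assume. That run checks the calculation and not the spread between cells or mice. Genes needed 100 UMIs over both groups, and 1.5-fold counted as passed, since 1 pooled sample per group allows no test. The genes named were the mitochondrial genes, core subunits and paralogs, and the 5 largest rises and falls per dose comparison with 200 UMIs or more. Genes from the class comparison and from whole lists (Ndufaf4, Ndufb7, Ndufb1-ps and other counted genes) were named after their values were seen. Members, lists and comparisons were chosen with earlier results of these data known. Gene positions are from GENCODE release M21 and promoters from RefSeq on GRCm38.p6, which had 75 of the 94 nuclear members.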

Additional observations from a re-analysis of the deposited data

Results flagged for a closer look

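In the 5 class-and-dose comparisons flagged here the sign of the log2 difference from vehicle was opposite in the libraries. The difference between the libraries was not tested. The list is not complete, and other comparisons also had opposite signs. The nuclear level of T cell-like cells at the low dose went from 1.725% to 1.765% (liver-labelled) and from 2.307% to 2.238% (spleen-labelled). That of neutrophil-like cells at the high dose went from 1.151% to 1.063% and from 1.599% to 1.611%. For the low dose, the nuclear level of B cell-like cells was -0.0331 in the liver-labelled library and 0.24 in the spleen-labelled one, and the mitochondrial level of granulocyte progenitor-like cells was 0.154 and -0.0275. For the high dose, the nuclear level of monocyte-like cells was -0.0569 and 0.0308, their mitochondrial level 0.13 and -0.11, and the mitochondrial level of neutrophil-like cells -0.0596 and 0.0913. That neutrophil difference turned to 0.0618 in the liver-labelled library without the 20 most abundant genes and to 0.0604 by the mean over cells, and to -0.0905 in the spleen-labelled one with calls by dominant hashtag. In barcodes without a hashtag call, which enter no comparison, mitochondrial members took 2.97% of UMIs in the liver-labelled library and 21.2% in the spleen-labelled one, where 1532 of the 1627 had the high dose hashtag as their top hashtag.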

How the results depend on the processing

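No paired analysis was possible because each group is 1 pooled sample per library and no result comes from a test. Differences are log2, "liver" and "spleen" stand for the library so labelled, and a cause was not tested unless named. Of 230 alternative values for summed measures and counts, 127 stayed within their interval or 1.5 times their count, 93 moved and 10 turned.

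Leaving the 20 most abundant genes out of the total (its cause is the total itself) turned neutrophil against T cell nuclear levels to 0.24 (liver) and 0.21 (spleen), the spleen mitochondrial level to 0.16, and high dose liver neutrophils to 0.00692 nuclear and 0.0618 mitochondrial. It moved liver neutrophil against T cell mitochondrial levels to -0.69, low dose neutrophils to -0.0854 nuclear and -0.23 mitochondrial (liver) and -0.26 and -0.0319 (spleen), high dose spleen neutrophil mitochondrial to 0.0772 and T cells to -0.0213. Without mitochondrial UMIs in the total, liver neutrophil against T cell nuclear was -0.62.

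The mean over cells turned high dose liver neutrophil mitochondrial to 0.0604. It gave -0.26 nuclear there, -0.22 nuclear and -0.35 mitochondrial at the low dose, 0.0927 and 0.0636 at the high dose in spleen, 0.0346 nuclear in T cells, -0.14 and 0.33 in B cells, and against T cells -0.51 (liver) and -0.77 (spleen) nuclear and -0.31 mitochondrial (spleen).

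Calls by dominant hashtag turned the high dose spleen neutrophil mitochondrial level to -0.0905 (nuclear -0.0365). Low dose gave -0.29 nuclear and -0.20 mitochondrial in spleen and -0.32 mitochondrial in liver, high dose -0.13 nuclear in liver neutrophils, 0.105 and -0.0575 in T cells and -0.077 and 0.103 in B cells. Against T cells the mitochondrial level was -1.49 and -0.48 and the nuclear -0.45 (spleen). Mitochondrial UMIs per nuclear UMI were 1.09 and 2.24 in neutrophils and 2.29 in spleen T cells, and mt-Co1 shares 32.0% and 18.8%.

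Resolution 0.4 gave ratios of 1.14 and 3.20, mt-Co1 shares of 34.2% and 21.5%, nuclear neutrophil against T cell levels of -0.68 and -1.13, low dose levels of -0.18 and -0.33 (liver) and -0.16 and -0.0754 (spleen), and high dose nuclear -0.0936 (liver). Resolution 1.6 gave ratios of 1.1 and 1.96 in neutrophils and 1.95 and 3.44 in T cells, mt-Co1 32.4% (liver), nuclear -0.69 and -0.165 and spleen mitochondrial -0.98 against T cells, high dose -0.0615 nuclear in liver and 0.17 mitochondrial in spleen neutrophils, and 0.11 and -0.0232 in T cells.

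Keeping cells with 200 genes and under 10% mitochondrial UMIs turned B cell mitochondrial to -0.0751. It gave ratios of 1.06 and 1.82, a spleen mt-Co1 share of 19.9%, spleen neutrophil mitochondrial -0.17 (low), 0.0727 (high) and -0.77 against T cells. Without cluster 8, or 8 and 18, chosen after seeing the data, the B cell value turned to -0.0552 and -0.0574. With members among the variable features, ratios were 1.06 and 2.0 and spleen mitochondrial values 0.145 (high) and -0.0392 (low). Without Scrublet doublets the liver ratio was 1.06, low dose mitochondrial -0.32, against T cells -1.54 and mt-Co1 32.9%.

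At the lower fold tried, more members passed downward: 18 and 3 at the high dose (liver, spleen neutrophils), 17 and 38 at the low dose, 1 in B cells, with 2 upward in spleen neutrophils, 2 in T cells and 3 in B cells. The shares of all genes are not given for that lower fold, nor for the other fold and UMI limits that follow. None of these counts is therefore read as an excess or as a deficit. At 2-fold 0 passed in any of these dose comparisons. With 30 UMIs 1 passed each way at the low dose (liver) and 1 downward in B cells. With 300 UMIs 0 passed upward in high dose neutrophils of either library or in B cells. Among the 95 alternative values of single genes, 26 stayed within their interval, 69 moved and 0 turned. Depth limits single genes of few UMIs, such as Ndufaf4 and mt-Nd6, and the absence of replicates limits all differences.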
